A study of Saccharomyces cerevisiae with 20 samples.

Results

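The aminoacyl-tRNA synthetases of budding yeast were followed here as 36 named open reading frames out of 6679 in the deposited expression table. A cytosolic set held 23 of them, counting ARC1, which is a cofactor and not an enzyme. A mitochondrial set held the other 13. Members were taken by open reading frame name, but the list was chosen with earlier results of these data known. All 36 were present in the table.

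Each synthetase joins 1 amino acid to tRNAs, as a rule the matching ones, and the charged tRNAs are what the ribosome reads codons with. Yeast translates in the cytosol and, for a few subunits of the respiratory chain and ATP synthase, inside mitochondria. All the enzymes of both compartments are encoded in the nucleus and made on cytosolic ribosomes, and the mitochondrial ones are then imported. Several cytosolic genes, among them ALA1, GRS1, HTS1 and VAS1, also supply the mitochondrial enzyme through an alternative start site, so the cytosolic set serves both compartments in part.

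The study grew SK1 yeast in rich YEPD medium to an optical density of 0.6. In the DBP1 cells the DED1 open reading frame had been replaced by that of its paralogue DBP1, so that DBP1 stood under DED1 regulatory regions. In the DED1 cells the same regulatory regions drove DED1. Ded1 and Dbp1 are DEAD-box RNA helicases, of which Ded1 acts in translation initiation. The 4 groups were DBP1 cells at 37C, DBP1 cells at 30C, DED1 cells at 37C and DED1 cells at 30C. Each 37C group had 2 replicates and each 30C group had 3, and each replicate gave a poly(A) mRNA library and a library of ribosome footprints, the short stretches of mRNA that ribosomes protect from nuclease. All cells received 100 uM cycloheximide for 1 minute before harvest. No label says that replicates came from separate cultures, so p-values measure the spread between these samples, which may be technical.

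Values are RPKM, reads scaled to coding length and to the library's total. Depth, recovered from the step between low RPKM values, in units of 1e6 reads, was 3.94 to 9.69 per mRNA library and 4.82 to 9.39 per footprint library. DBP1 mRNA was 98.3 to 130.1 RPKM in DBP1 cells and 3.64 to 6.50 RPKM in DED1 cells. DED1 mRNA was 0.0765 to 3.19 RPKM in DBP1 cells and 40.9 to 54.2 RPKM in DED1 cells, so the libraries carried the helicase their labels name. All 36 members passed the filter of a mean of 5 RPKM in both assays. Reads behind one value ranged upwards from 136 (DIA4) in mRNA and 105 (MSE1) in footprints in the mitochondrial set. In the cytosolic set GRS2 was thinnest, at 198 reads in mRNA and 69 in footprints at its lowest.

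The sets lay at different levels in every library. Averaged over the 10 mRNA libraries, cytosolic members ranged from 166 RPKM for CRS1 to 752 RPKM for THS1, with the glycyl-tRNA synthetase paralogue GRS2 far below them at 27.2 RPKM. Mitochondrial members ranged from 26.6 RPKM for DIA4 to 117 RPKM for MSY1. In footprints, cytosolic members other than GRS2 averaged 158 RPKM (CRS1) to 771 RPKM (DPS1), and mitochondrial members averaged 14.6 RPKM (MSM1) to 49.5 RPKM (MSF1). GRS2 averaged 10.1 footprint RPKM, below every mitochondrial member. Thus, apart from GRS2, the sets did not overlap in mean level in either assay.

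**Figure D1:**
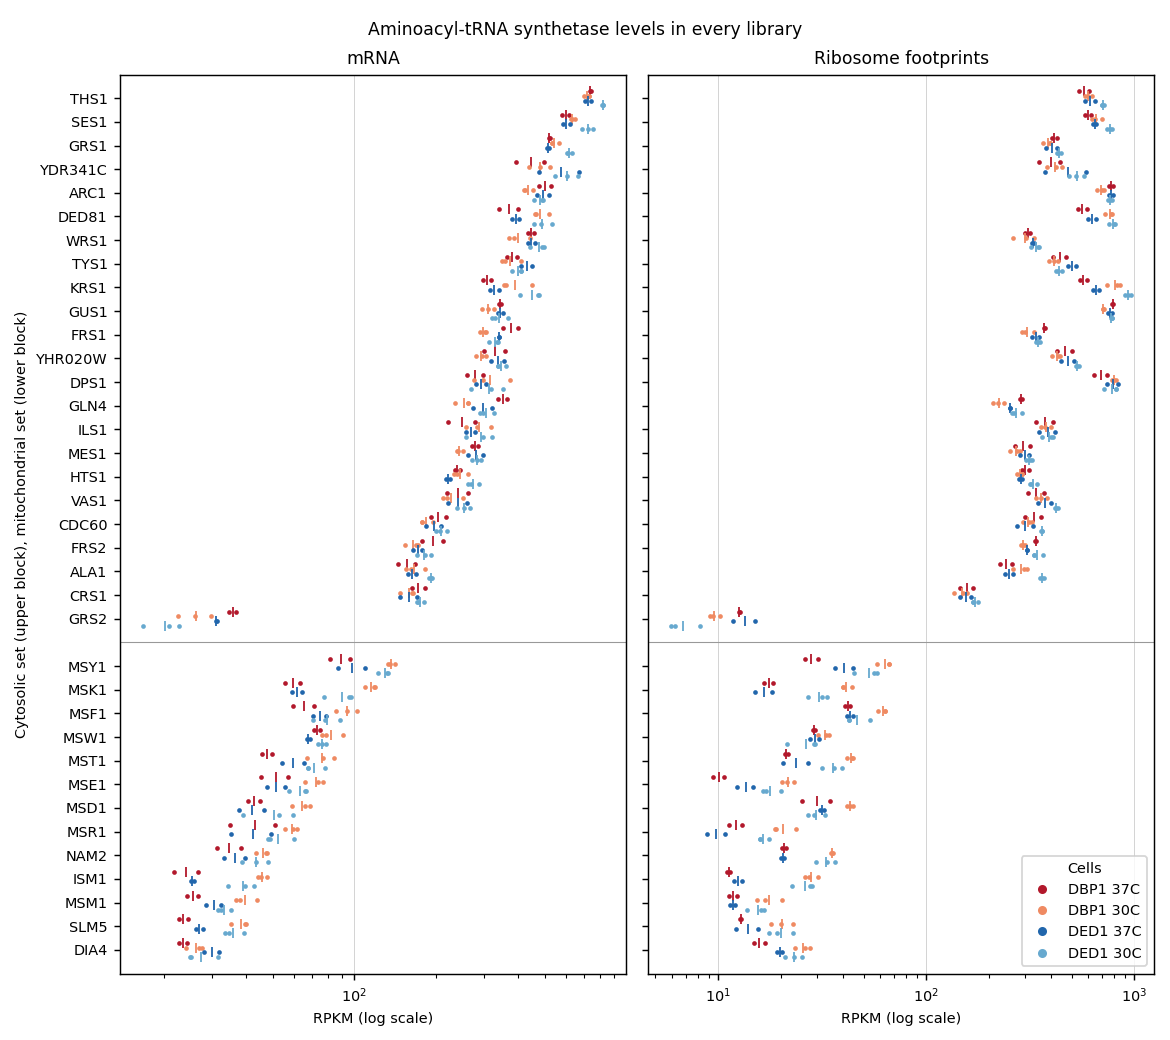
Level of each of the 36 members in RPKM on a log scale, in mRNA (left) and ribosome footprints (right). Each point is 1 library and each vertical tick is a group mean, coloured by strain and temperature; the cytosolic block lies to the right of the mitochondrial block in both assays, except for GRS2.

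Among the cytosolic partners, footprints were nearly equal for FRS1 and FRS2 and for GUS1 and ARC1, but not for MES1 and ARC1. FRS1 and FRS2 encode the beta and alpha subunits of phenylalanyl-tRNA synthetase, which come together in equal number. The FRS1 to FRS2 ratio was 1.88 ± 0.0996 in mRNA and 1.06 ± 0.054 in footprints (SD, n = 10), and every footprint ratio lay between 0.971 and 1.14. Arc1 binds the glutamyl- and methionyl-tRNA synthetases, Gus1 and Mes1. GUS1 to ARC1 was 0.703 ± 0.027 in mRNA and 1.01 ± 0.027 in footprints (SD, n = 10). MES1 to ARC1 was 0.569 ± 0.037 in mRNA and 0.392 ± 0.026 in footprints (SD, n = 10). These are ratios of levels per length within a replicate, and their ranges in mRNA and in footprints did not overlap for any of the 3 pairs.

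Growth at 37C in DBP1 cells was accompanied by lower levels of nearly the whole mitochondrial set. In footprints 12 of 13 members fell, all but MSW1, and no member rose, against 17.6% of 4986 tested genes that were lower. In mRNA 10 of 13 fell and no member rose, against 13.1% of 5454 tested genes that were lower. The median log2 difference of the set was -0.70 in footprints and -0.58 in mRNA, while the median over all tested genes was 0.10 in footprints and 0.18 in mRNA. Temperatures whose libraries did not overlap were common among all tested genes. In footprints 1279 genes lay apart as lower at 37C and 1879 as higher, and in mRNA 1045 and 2518. Without replicate 1 at 37C, mRNA calls over both sets numbered 8 instead of 15. The test was limma's moderated test on log2(RPKM + 1), with p-values adjusted over all tested genes. These are bulk libraries scaled to their own totals, so fewer cells with a transcript and less of it per cell cannot be told apart.

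ISM1 and MSK1 had the largest footprint differences. ISM1 (YPL040C), the mitochondrial isoleucyl-tRNA synthetase, had 11.4 and 11.0 footprint RPKM in DBP1 cells at 37C, against 30.3, 27.4 and 26.3 RPKM at 30C. Its footprints were 2.37-fold lower at 37C (log2 difference -1.24 ± 0.12 (SE), adjusted p = 4.96e-05). ISM1 mRNA was 26.5 and 21.8 RPKM at 37C and 47.7, 45.3 and 44.2 RPKM at 30C (log2 difference -0.90 ± 0.12 (SE), adjusted p = 0.000336). Every 37C library lay well below every 30C library in both assays. MSK1 (YNL073W), the lysyl-tRNA synthetase, had 16.7 and 18.3 footprint RPKM at 37C, against 44.2, 39.9 and 39.6 RPKM at 30C (log2 difference -1.19 ± 0.12 (SE), adjusted p = 6.76e-05). MSK1 mRNA was 55.6 and 62.9 RPKM at 37C and 118, 119 and 109 RPKM at 30C (log2 difference -0.95 ± 0.11 (SE), adjusted p = 0.000212). The groups were again far apart in both. NAM2 (YLR382C), the leucyl-tRNA synthetase, which also takes part in splicing mitochondrial group I introns, had 21.2 and 20.3 footprint RPKM at 37C and 35.2, 35.9 and 34.7 RPKM at 30C (log2 difference -0.74 ± 0.10 (SE), adjusted p = 0.000382). NAM2 mRNA was 31.2 and 38.2 RPKM at 37C and 47.9, 47.3 and 43.6 RPKM at 30C (log2 difference -0.41 ± 0.13 (SE), adjusted p = 0.0264). Its groups did not overlap, but the mRNA call ended without DBP1 replicate 1 or 2 at 30C (adjusted p = 0.0691 and 0.0623) or replicate 1 at 37C (adjusted p = 0.188).

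MSR1 (YHR091C), the arginyl-tRNA synthetase, had 11.3 and 13.0 footprint RPKM in DBP1 cells at 37C, against 18.8, 19.0 and 23.6 RPKM at 30C (log2 difference -0.70 ± 0.14 (SE), adjusted p = 0.00301). Its mRNA was 34.9 and 51.0 RPKM at 37C and 61.7, 59.5 and 55.5 RPKM at 30C and did not pass (adjusted p = 0.0538). The libraries of each assay were apart by temperature, which was common among all tested genes. MSR1 and the cytosolic arginyl-tRNA synthetase gene YDR341C are paralogues, as are GRS1 and GRS2, and the sources used here do not say how reads shared by such copies were counted.

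The enzymes for tyrosine, glutamate and threonine came next in footprints. MSY1 (YPL097W), the tyrosyl-tRNA synthetase, had 26.1 and 30.1 footprint RPKM in DBP1 cells at 37C, against 66.1, 66.3 and 58.1 RPKM at 30C (log2 difference -1.15 ± 0.13 (SE), adjusted p = 0.000188). MSY1 mRNA was 81.6 and 96.7 RPKM at 37C and 133, 141 and 136 RPKM at 30C (log2 difference -0.61 ± 0.11 (SE), adjusted p = 0.00255). No 37C library reached a 30C one. MSE1 (YOL033W), the glutamyl-tRNA synthetase, had 9.43 and 10.7 footprint RPKM at 37C, against 23.2, 21.5 and 20.3 RPKM at 30C (log2 difference -1.03 ± 0.13 (SE), adjusted p = 0.000238). MSE1 mRNA was 45.5 and 57.1 RPKM at 37C and 65.6, 76.6 and 73.6 RPKM at 30C (log2 difference -0.49 ± 0.12 (SE), adjusted p = 0.0119), and that call ended without replicate 1 at 37C (adjusted p = 0.101). Both assays separated the temperatures. MST1 (YKL194C), the threonyl-tRNA synthetase, had 21.7 and 20.9 footprint RPKM at 37C, against 43.9, 44.4 and 41.7 RPKM at 30C (log2 difference -0.99 ± 0.13 (SE), adjusted p = 0.000339). MST1 mRNA was 45.9 and 49.6 RPKM at 37C and 76.7, 84.2 and 67.1 RPKM at 30C (log2 difference -0.66 ± 0.12 (SE), adjusted p = 0.00265). The 37C libraries were the lowest in each case.

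The remaining calls in DBP1 cells were smaller in footprints. MSF1 (YPR047W), the phenylalanyl-tRNA synthetase, had 40.7 and 43.2 footprint RPKM at 37C, against 63.7, 63.1 and 58.9 RPKM at 30C (log2 difference -0.55 ± 0.11 (SE), adjusted p = 0.00413). MSF1 mRNA was 59.6 and 70.9 RPKM at 37C and 94.2, 102 and 85.9 RPKM at 30C (log2 difference -0.52 ± 0.12 (SE), adjusted p = 0.00845). The temperatures did not overlap, and the mRNA call ended without replicate 1 at 37C (adjusted p = 0.0684). MSD1 (YPL104W), the aspartyl-tRNA synthetase, had 25.3 and 34.4 footprint RPKM at 37C, against 43.2, 44.6 and 41.5 RPKM at 30C (log2 difference -0.53 ± 0.13 (SE), adjusted p = 0.00998). MSD1 mRNA was 40.5 and 44.8 RPKM at 37C and 58.8, 68.4 and 66.0 RPKM at 30C (log2 difference -0.58 ± 0.16 (SE), adjusted p = 0.0176). All 37C libraries were lower, and the calls ended without replicate 1 at 37C in footprints (adjusted p = 0.0965) and without replicate 1 or 2 at 37C in mRNA (adjusted p = 0.0917 and 0.0501).

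SLM5 (YCR024C), the asparaginyl-tRNA synthetase, had 12.8 and 12.9 footprint RPKM in DBP1 cells at 37C, against 22.9, 20.0 and 18.0 RPKM at 30C (log2 difference -0.62 ± 0.15 (SE), adjusted p = 0.00928). SLM5 mRNA was 24.4 and 22.6 RPKM at 37C and 35.1, 39.9 and 39.7 RPKM at 30C (log2 difference -0.68 ± 0.10 (SE), adjusted p = 0.000897). Its groups were apart in both assays. MSM1 (YGR171C), the methionyl-tRNA synthetase, had 12.4 and 11.3 footprint RPKM at 37C, against 16.8, 20.3 and 15.4 RPKM at 30C (log2 difference -0.52 ± 0.13 (SE), adjusted p = 0.0121), and the call ended without replicate 2 at 37C (adjusted p = 0.0795). MSM1 mRNA was 24.2 and 26.6 RPKM at 37C and 43.7, 38.1 and 36.7 RPKM at 30C (log2 difference -0.61 ± 0.11 (SE), adjusted p = 0.00207). Again the temperatures did not overlap. DIA4 (YHR011W), the probable seryl-tRNA synthetase, had 14.9 and 16.7 footprint RPKM at 37C, against 26.2, 27.5 and 23.3 RPKM at 30C (log2 difference -0.67 ± 0.11 (SE), adjusted p = 0.00144). Its mRNA was 22.6 and 24.2 RPKM at 37C and 26.8, 27.5 and 24.0 RPKM at 30C and did not pass (adjusted p = 0.341). DIA4 footprints were apart, whereas its mRNA values overlapped. MSW1 (YDR268W), the tryptophanyl-tRNA synthetase, had 29.1 and 28.7 footprint RPKM at 37C and 33.1, 30.4 and 34.0 RPKM at 30C (log2 difference -0.16 ± 0.13 (SE), adjusted p = 0.357). MSW1 mRNA was 71.3 and 74.5 RPKM at 37C and 76.2, 78.7 and 90.6 RPKM at 30C (adjusted p = 0.178). Its 37C values were lower in every library of both assays but did not pass.

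**Figure D2:**
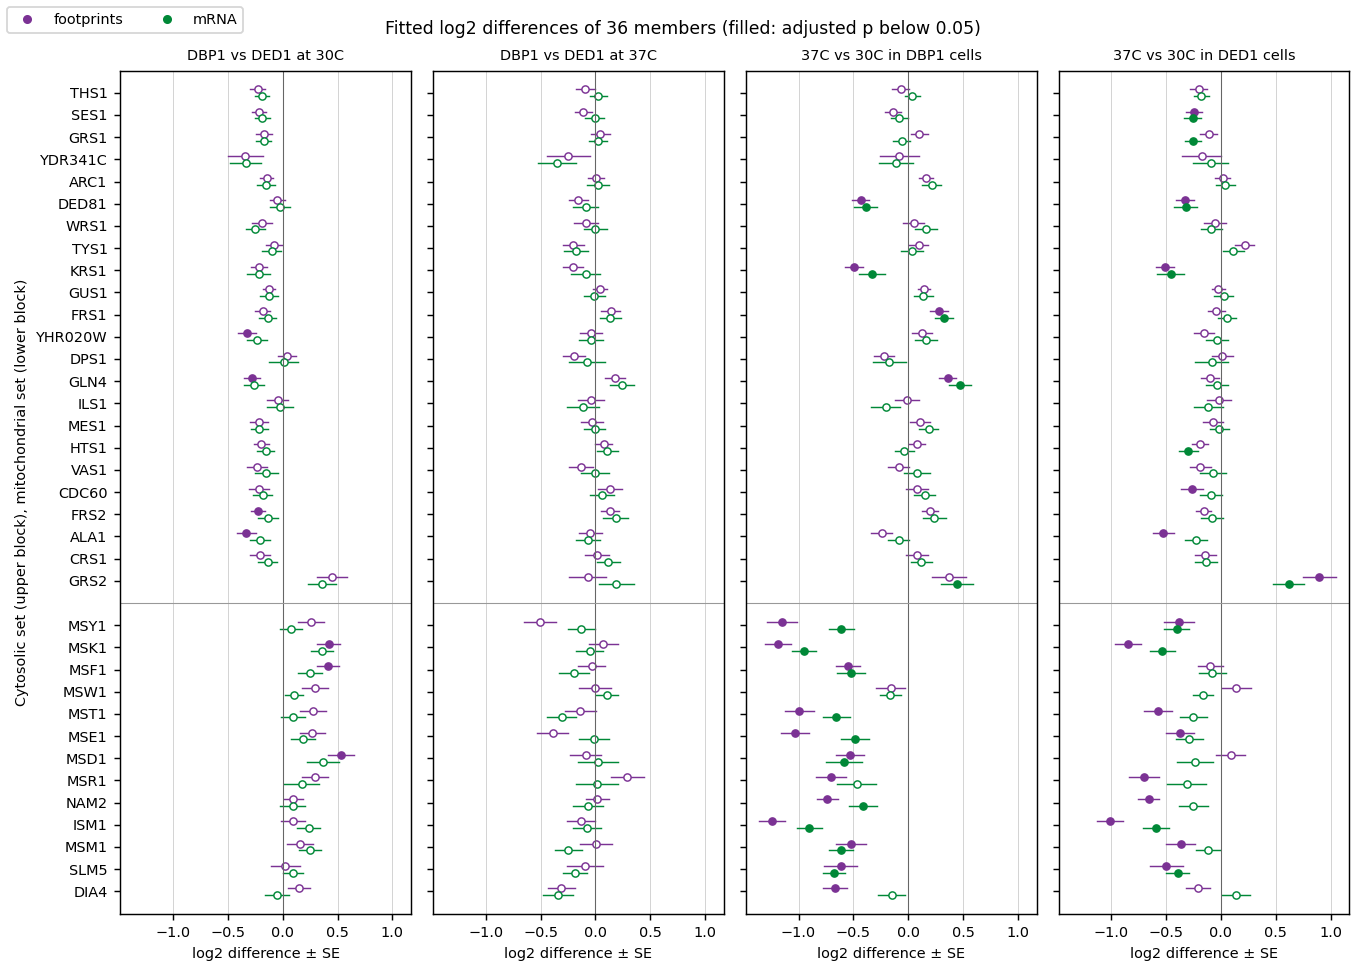
Fitted log2 difference with its standard error for each member, in footprints (purple) and mRNA (green), for DBP1 against DED1 cells at each temperature and for 37C against 30C in each strain; filled points have an adjusted p below 0.05. In the DBP1 temperature panel 12 mitochondrial footprint points and 10 mRNA points are filled to the left of 0, while in the panel for strains at 37C no point is filled.

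In DED1 cells the mitochondrial set was lower at 37C as well. Of 13 members 9 fell in footprints and 4 in mRNA, and none rose, against 13.6% of tested genes lower in footprints and 10.3% in mRNA. The set's median log2 difference was -0.38 in footprints and -0.25 in mRNA, against 0.21 and 0.26 over all tested genes. Here too many tested genes did not overlap between temperatures. In footprints 989 lay apart as lower at 37C and 2592 as higher, and in mRNA 797 and 3079. The 4 members that did not pass in footprints were DIA4, MSD1, MSF1 and MSW1. With median-of-ratios scaling the median over all genes moved by -0.22 in footprints and -0.26 in mRNA in this strain, and by -0.08 and -0.16 in DBP1 cells. Under that scaling 12 mitochondrial members were lower in each assay in DBP1 cells, against 20.8% of tested genes in footprints and 19.2% in mRNA. In DED1 cells 11 were lower in footprints and 12 in mRNA, against 24.0% and 21.7% of tested genes, and the set's medians were -0.60 and -0.52. The counts of the strains thus came close to each other under that scaling. As first scaled, some mRNA calls in DED1 cells, mainly on cytosolic members, ended without replicate 1 or replicate 2 at 37C. Among mitochondrial members these were MSY1 without replicate 1 (log2 difference -0.24) and SLM5 without replicate 2 (-0.36).

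ISM1 had 13.0 and 11.9 footprint RPKM in DED1 cells at 37C, against 28.4, 22.6 and 27.7 RPKM at 30C (log2 difference -1.02 ± 0.12 (SE), adjusted p = 0.000159). ISM1 mRNA was 25.1 and 25.6 RPKM at 37C and 42.9, 34.2 and 39.5 RPKM at 30C (log2 difference -0.59 ± 0.12 (SE), adjusted p = 0.00246). The temperatures were apart in both assays. MSK1 had 15.1 and 18.2 footprint RPKM at 37C, against 31.4, 27.1 and 33.3 RPKM at 30C (log2 difference -0.84 ± 0.12 (SE), adjusted p = 0.000427). MSK1 mRNA was 59.1 and 63.9 RPKM at 37C and 96.8, 77.5 and 95.9 RPKM at 30C (log2 difference -0.54 ± 0.11 (SE), adjusted p = 0.00346). Both MSK1 37C libraries lay below all 30C libraries in each assay. MSR1 had 8.81 and 10.8 footprint RPKM at 37C, against 17.6, 15.9 and 15.8 RPKM at 30C (log2 difference -0.70 ± 0.14 (SE), adjusted p = 0.00228). NAM2 had 20.2 and 20.8 footprint RPKM at 37C, against 36.3, 29.5 and 33.3 RPKM at 30C (log2 difference -0.66 ± 0.10 (SE), adjusted p = 0.000563). Neither gene's footprints overlapped between temperatures, and these 6 calls remained with any 1 replicate left out.

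The other calls on mitochondrial members in DED1 cells ended without 1 replicate or more. MST1 had 20.5 and 27.0 footprint RPKM at 37C, against 39.5, 31.5 and 36.2 RPKM at 30C (log2 difference -0.58 ± 0.13 (SE), adjusted p = 0.00458), and adjusted p was 0.0535 without replicate 1 at 37C. SLM5 had 15.5 and 12.2 footprint RPKM at 37C, against 23.0, 17.6 and 19.2 RPKM at 30C (log2 difference -0.50 ± 0.15 (SE), adjusted p = 0.0183), and the call ended without replicate 1 at 30C (adjusted p = 0.0546) or replicate 2 at 37C (adjusted p = 0.149). Both genes had all 37C libraries below the 30C ones. SLM5 mRNA was 27.6 and 26.1 RPKM at 37C and 39.1, 33.4 and 34.7 RPKM at 30C (log2 difference -0.40 ± 0.10 (SE), adjusted p = 0.00916), with adjusted p = 0.0626 without replicate 2 at 37C. MSY1 mRNA was 86.8 and 109 RPKM at 37C and 133, 123 and 132 RPKM at 30C (log2 difference -0.40 ± 0.11 (SE), adjusted p = 0.0132), with adjusted p = 0.149 without replicate 1 at 37C. Both transcripts were lower in each 37C library. MSY1 had 36.5 and 44.4 footprint RPKM at 37C, against 56.3, 45.2 and 57.7 RPKM at 30C (log2 difference -0.38 ± 0.13 (SE), adjusted p = 0.0358), and the call ended without replicate 1 or 3 at 30C (adjusted p = 0.0908 and 0.103) or replicate 1 at 37C (adjusted p = 0.265). MSE1 had 12.4 and 14.7 footprint RPKM at 37C, against 20.1, 17.1 and 16.4 RPKM at 30C (log2 difference -0.37 ± 0.13 (SE), adjusted p = 0.0306), and the call ended without replicate 1 at 30C (adjusted p = 0.0898) or replicate 1 at 37C (adjusted p = 0.219). The temperature groups of these 2 genes did not overlap, although for MSY1 the gap between the nearest libraries was small. MSM1 had 11.4 and 12.1 footprint RPKM at 37C, against 16.1, 13.8 and 16.6 RPKM at 30C (log2 difference -0.37 ± 0.13 (SE), adjusted p = 0.04). Its groups were apart, and the call ended without any of 5 replicates, namely DBP1 replicate 1 at 30C, DED1 replicates 1 and 3 at 30C and both DED1 replicates at 37C, with adjusted p from 0.0544 to 0.166.

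At 37C the cytosolic set moved in both directions in DBP1 cells and leaned lower in DED1 cells. In DBP1 cells 2 of 23 members rose and 2 fell in footprints, against 21.2% of tested genes higher and 17.6% lower. In mRNA 3 rose and 2 fell, against 30.0% of tested genes higher and 13.1% lower. In DED1 cells 1 rose and 5 fell in footprints, against 38.9% higher and 13.6% lower, and 1 rose and 5 fell in mRNA, against 43.1% higher and 10.3% lower. The set's median log2 difference was 0.08 in both assays in DBP1 cells, and -0.14 in footprints and -0.09 in mRNA in DED1 cells. Over all tested genes the footprint and mRNA medians were 0.10 and 0.18 in DBP1 cells, and 0.21 and 0.26 in DED1 cells. In DED1 cells 19 of 23 footprint estimates were below 0, against 1651 of 4986 tested genes. In mRNA 18 of 23 were, against 1442 of 5454. With median-of-ratios scaling 1 cytosolic member was higher and 4 lower in footprints in DBP1 cells, and 1 higher and 2 lower in mRNA, against 15.2% of tested genes higher and 20.8% lower in footprints and 13.1% and 19.2% in mRNA. The set's medians there were -0.00 in footprints and -0.08 in mRNA, so their sign turned. In DED1 cells 17 cytosolic members were lower in each assay under that scaling, with 1 higher in footprints and none in mRNA, against 20.1% of tested genes higher and 24.0% lower in footprints and 17.0% and 21.7% in mRNA. The set's medians there were -0.37 in footprints and -0.36 in mRNA. Over all genes it left 925 higher and 1180 lower in DED1 mRNA, where 2349 were higher and 560 lower as first scaled.

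The lysine and asparagine enzymes fell in both strains. KRS1 (YDR037W), the lysyl-tRNA synthetase, had 590.2 and 549 footprint RPKM in DBP1 cells at 37C, against 854, 737 and 828 RPKM at 30C (log2 difference -0.50 ± 0.08 (SE), adjusted p = 0.00133). In DED1 cells KRS1 had 679 and 634 footprint RPKM at 37C, against 932, 969 and 904 RPKM at 30C (log2 difference -0.51 ± 0.08 (SE), adjusted p = 0.000895). No 37C library reached a 30C one in either strain. KRS1 mRNA was 316 and 298 RPKM in DBP1 cells at 37C and 449.5, 354 and 362 RPKM at 30C (log2 difference -0.33 ± 0.12 (SE), adjusted p = 0.0471). That call ended without any replicate but DBP1 replicate 2 or DED1 replicate 3 at 30C, with adjusted p from 0.0508 to 0.198. KRS1 mRNA was 315 and 339 RPKM in DED1 cells at 37C and 475, 473 and 405 RPKM at 30C (log2 difference -0.46 ± 0.12 (SE), adjusted p = 0.00927), with adjusted p = 0.0682 without replicate 1 at 37C. DED81 (YHR019C), the asparaginyl-tRNA synthetase, had 593 and 534 footprint RPKM in DBP1 cells at 37C, against 785, 725 and 776 RPKM at 30C (log2 difference -0.43 ± 0.08 (SE), adjusted p = 0.00233). In DED1 cells DED81 had 659 and 597 footprint RPKM at 37C, against 802, 809 and 752 RPKM at 30C (log2 difference -0.33 ± 0.08 (SE), adjusted p = 0.0073), with adjusted p = 0.0611 without replicate 2 at 37C. Groups were apart in both strains. DED81 mRNA was 399 and 339 RPKM in DBP1 cells at 37C and 521, 461 and 465 RPKM at 30C (log2 difference -0.39 ± 0.10 (SE), adjusted p = 0.0145), with adjusted p = 0.130 without replicate 2 at 37C. DED81 mRNA was 402 and 380.4 RPKM in DED1 cells at 37C and 531, 484 and 457 RPKM at 30C (log2 difference -0.32 ± 0.10 (SE), adjusted p = 0.0248). It ended without replicate 1 or 2 at 30C or either replicate at 37C, with adjusted p from 0.0518 to 0.128.

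GRS2 (YPR081C), the minor glycyl-tRNA synthetase gene, was the member that rose in DED1 cells. It had 11.8 and 15.1 footprint RPKM in DED1 cells at 37C, against 8.18, 6.19 and 5.96 RPKM at 30C (log2 difference 0.90 ± 0.15 (SE), adjusted p = 0.00118). Its mRNA was 31.3 and 30.9 RPKM at 37C and 22.6, 20.8 and 16.7 RPKM at 30C (log2 difference 0.62 ± 0.14 (SE), adjusted p = 0.00535). Groups were apart in both assays, while with median-of-ratios scaling the mRNA value was 0.36 with adjusted p = 0.0577. In DBP1 cells GRS2 mRNA was 36.6 and 34.7 RPKM at 37C and 22.4, 29.7 and 26.0 RPKM at 30C (log2 difference 0.45 ± 0.14 (SE), adjusted p = 0.0296). That call ended with median-of-ratios scaling (adjusted p = 0.128) and without replicate 1 or 3 at 30C or either replicate at 37C (adjusted p from 0.0595 to 0.119). GRS2 footprints in DBP1 cells were 12.7 and 12.6 RPKM at 37C and 9.11, 9.42 and 10.2 RPKM at 30C (adjusted p = 0.0791). GRS1 (YBR121C), the major glycyl-tRNA synthetase gene, had 509 and 518 mRNA RPKM in DED1 cells at 37C and 608, 603 and 629.9 RPKM at 30C (log2 difference -0.26 ± 0.07 (SE), adjusted p = 0.0148). GRS1 was lower in both 37C libraries, and the call ended without replicate 1 or 2 at 37C (adjusted p = 0.0789 and 0.0554). The GRS1 to GRS2 footprint ratio was 31.7 to 33.4 in DBP1 cells at 37C, 38.6 to 43.4 in DBP1 cells at 30C, 25.0 to 35.9 in DED1 cells at 37C and 52.5 to 74.5 in DED1 cells at 30C.

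GLN4 and FRS1 rose in DBP1 cells. GLN4 (YOR168W), the glutaminyl-tRNA synthetase, had 289.6 and 282 footprint RPKM at 37C, against 222, 210.2 and 236 RPKM at 30C (log2 difference 0.36 ± 0.08 (SE), adjusted p = 0.00684). GLN4 mRNA was 336 and 365 RPKM at 37C and 262, 235 and 262 RPKM at 30C (log2 difference 0.47 ± 0.10 (SE), adjusted p = 0.0054). All GLN4 values at 37C exceeded those at 30C. FRS1 (YLR060W) had 367 and 372 footprint RPKM at 37C, against 298, 288 and 328 RPKM at 30C (log2 difference 0.28 ± 0.08 (SE), adjusted p = 0.0189). FRS1 mRNA was 398 and 352 RPKM at 37C and 302, 289 and 304 RPKM at 30C (log2 difference 0.33 ± 0.08 (SE), adjusted p = 0.0122). FRS1 groups were apart, yet both calls ended with median-of-ratios scaling (adjusted p = 0.103 in footprints and 0.207 in mRNA). They also ended without replicate 1 at 37C in mRNA (adjusted p = 0.0935), and in footprints without replicate 1 or 2 at 30C or either replicate at 37C (adjusted p from 0.0544 to 0.087).

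ALA1, CDC60, SES1 and HTS1 also fell in DED1 cells. Whether their response differed between strains was tested as an interaction, and none of the 4 passed that test in either assay. ALA1 (YOR335C), the alanyl-tRNA synthetase, had 262 and 239 footprint RPKM in DED1 cells at 37C, against 359, 352 and 370.4 RPKM at 30C (log2 difference -0.52 ± 0.09 (SE), adjusted p = 0.00154). Its groups were far apart, and the call remained with any 1 replicate left out. CDC60 (YPL160W), the leucyl-tRNA synthetase, had 325 and 274 footprint RPKM at 37C, against 362, 359 and 356 RPKM at 30C (log2 difference -0.26 ± 0.10 (SE), adjusted p = 0.0466). The CDC60 call ended without any of the 30C replicates of either strain or DED1 replicate 2 at 37C, with adjusted p from 0.0525 to 0.335. SES1 (YDR023W), the seryl-tRNA synthetase, had 658 and 632 footprint RPKM at 37C, against 740.3, 765 and 786 RPKM at 30C (log2 difference -0.24 ± 0.07 (SE), adjusted p = 0.0196), and ended without replicate 1 or 2 at 37C (adjusted p = 0.0565 and 0.099). SES1 mRNA was 618 and 586 RPKM at 37C and 688, 721 and 752 RPKM at 30C (log2 difference -0.26 ± 0.08 (SE), adjusted p = 0.0177), and ended without replicate 3 at 30C (adjusted p = 0.0502) or replicate 2 at 37C (adjusted p = 0.112). HTS1 (YPR033C), the histidyl-tRNA synthetase, had 218 and 224 mRNA RPKM at 37C and 288, 268 and 260.5 RPKM at 30C (log2 difference -0.30 ± 0.09 (SE), adjusted p = 0.0157), and ended without replicate 1 or 2 at 37C (adjusted p = 0.0864 and 0.0531). For each of these genes both 37C libraries lay below all 30C libraries.

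At 30C the sets leaned in opposite directions between strains. In footprints 4 of 23 cytosolic members were lower in DBP1 cells and none higher, and 3 of 13 mitochondrial members were higher and none lower, against 10.4% of tested genes higher and 3.09% lower. The median log2 difference was -0.21 for the cytosolic set, 0.27 for the mitochondrial set and 0.06 over all tested genes. Estimates were below 0 for 21 cytosolic members and above 0 for all 13 mitochondrial ones. This lean was not particular to the synthetases. Of 135 tested cytosolic ribosomal protein genes 133 had footprint estimates below 0 (median -0.19, 39 called lower). Of 72 mitochondrial ribosomal protein genes 70 had estimates above 0 (median 0.16, 5 called higher). All 10 mitochondrial translation factors did so too (median 0.26, 1 called higher). The replicates of the strains did not overlap for 17 lower cytosolic members and 8 higher mitochondrial members, where 13.2% of tested genes lay apart as lower and 23.5% as higher. Under median-of-ratios scaling 12 cytosolic members were lower and 2 mitochondrial members higher, against 4.98% of tested genes lower and 7.4% higher.

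MSD1 had 43.2, 44.6 and 41.5 footprint RPKM in DBP1 cells at 30C, against 32.8, 27.0 and 29.1 RPKM in DED1 cells (log2 difference 0.53 ± 0.12 (SE), adjusted p = 0.0167). MSK1 had 44.2, 39.9 and 39.6 footprint RPKM in DBP1 cells, against 31.4, 27.1 and 33.3 RPKM in DED1 cells (log2 difference 0.42 ± 0.11 (SE), adjusted p = 0.029). MSF1 had 63.7, 63.1 and 58.9 footprint RPKM in DBP1 cells, against 53.9, 42.5 and 42.7 RPKM in DED1 cells (log2 difference 0.42 ± 0.10 (SE), adjusted p = 0.0241). Each of these genes was higher in all DBP1 replicates. ALA1 had 295, 261 and 304 footprint RPKM in DBP1 cells, against 359, 352 and 370.4 RPKM in DED1 cells (log2 difference -0.33 ± 0.08 (SE), adjusted p = 0.0303). YHR020W, the prolyl-tRNA synthetase gene, had 441, 402 and 432 footprint RPKM in DBP1 cells, against 524, 540.2 and 531 RPKM in DED1 cells (log2 difference -0.32 ± 0.08 (SE), adjusted p = 0.0306). Both were lower in all DBP1 replicates. GLN4 had 222, 210.2 and 236 footprint RPKM in DBP1 cells, against 263, 259 and 288 RPKM in DED1 cells (log2 difference -0.28 ± 0.07 (SE), adjusted p = 0.0326). FRS2 (YFL022C) had 291, 287 and 298 footprint RPKM in DBP1 cells, against 330.3, 331 and 364 RPKM in DED1 cells (log2 difference -0.23 ± 0.06 (SE), adjusted p = 0.0451). They too did not overlap between strains. All 7 calls ended without DBP1 replicate 1 (adjusted p from 0.0506 to 0.112), DBP1 replicate 2 (0.0591 to 0.127) or DED1 replicate 2 (0.0638 to 0.106). Without DED1 replicate 3 the call on MSK1 alone was left, and adjusted p of the others was 0.0559 to 0.143. Without DBP1 replicate 3 FRS2, MSK1 and YHR020W ended (0.0616 to 0.0892), and without DED1 replicate 1 ALA1, FRS2 and YHR020W ended (0.051 to 0.0555). FRS2 ended also without any 37C replicate of either strain (0.0583 to 0.0594). MSK1 ended with median-of-ratios scaling (adjusted p = 0.0644).

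In mRNA at 30C limma called none of the 36 members, where 8.03% of tested genes were higher and 1.27% lower in DBP1 cells. At an unadjusted p below 0.05 there were 10 cytosolic and 5 mitochondrial members, against 25.4% of tested genes, and 1 member passed without DED1 replicate 1. The medians were -0.15 for the cytosolic set, 0.17 for the mitochondrial set and 0.04 over all tested genes. Estimates were below 0 for 21 of 23 cytosolic members, with GRS2 and DPS1 as the exceptions, and above 0 for 12 of 13 mitochondrial members, with DIA4 as the exception. Strains did not overlap for 12 lower cytosolic members and 3 higher mitochondrial members, where 10.0% of tested genes lay apart as lower and 20.7% as higher. The mitochondrial count was thus close to the share over all tested genes. MSK1 mRNA came nearest to the threshold, with 118, 119 and 109 RPKM in DBP1 cells and 96.8, 77.5 and 95.9 RPKM in DED1 cells (log2 difference 0.36 ± 0.10 (SE), adjusted p = 0.0512).

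At 37C limma called none of the 36 members between strains in either assay. Of all tested genes 0.055% were called in mRNA and 0.963% in footprints. At an unadjusted p below 0.05 there were 2 mitochondrial members in mRNA (10.6% of tested genes), and 1 cytosolic and 3 mitochondrial members in footprints (16.5% of tested genes). The median log2 difference in footprints was -0.04 for the cytosolic set and -0.09 for the mitochondrial set, against -0.08 over all tested genes. In mRNA it was -0.00 for the cytosolic set and -0.08 for the mitochondrial set, against -0.05 over all tested genes. With median-of-ratios scaling the cytosolic medians were 0.03 in footprints and 0.05 in mRNA and the mitochondrial ones -0.02 in each, so the cytosolic sign depended on the scaling. The widest mitochondrial estimate was that of MSY1, with 26.1 and 30.1 footprint RPKM in DBP1 cells and 36.5 and 44.4 RPKM in DED1 cells (log2 difference -0.51 ± 0.15 (SE), adjusted p = 0.135). Its replicates did not overlap, but among 4986 tested genes 1688 lay apart as lower and 672 as higher.

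**Figure D3:**
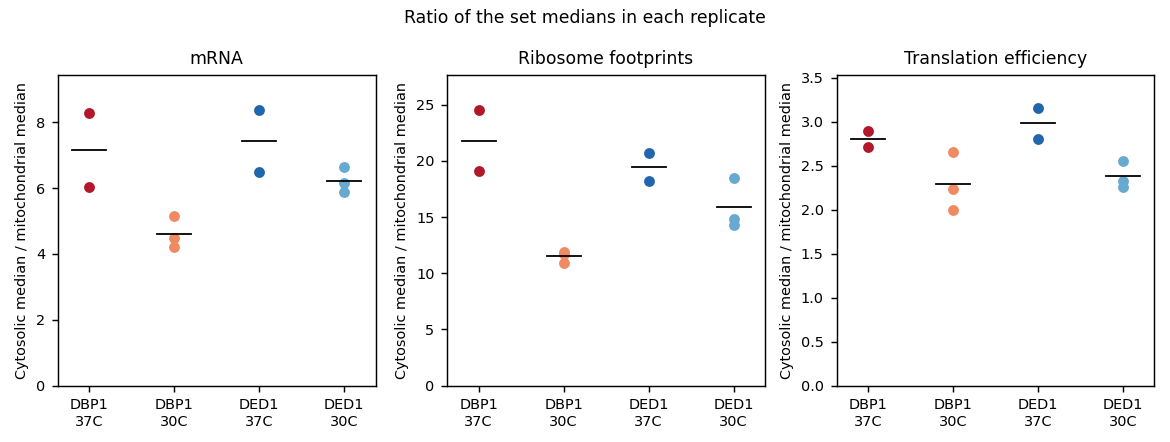
Median level of the 23 cytosolic members divided by that of the 13 mitochondrial members within each replicate, for mRNA, footprints and translation efficiency. Points are replicates and bars are group means; the lowest mRNA and footprint ratios are those of DBP1 cells at 30C, at 4.22 to 5.16 and 10.9 to 11.9.

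The balance between the sets can be read within a replicate as the cytosolic median over the mitochondrial median. In footprints the ratio was 24.5 and 19.1 in DBP1 cells at 37C, and 11.9, 11.7 and 10.9 in DBP1 cells at 30C. It was 20.7 and 18.2 in DED1 cells at 37C, and 14.8, 18.5 and 14.3 in DED1 cells at 30C. DBP1 cells at 30C therefore lay below every other group, whereas 1 DED1 replicate at 30C lay above 1 at 37C. In mRNA the ratio was 6.04 to 8.29 in DBP1 cells at 37C, 4.22 to 5.16 in DBP1 cells at 30C, 6.49 to 8.38 in DED1 cells at 37C and 5.87 to 6.63 in DED1 cells at 30C. Pairing each of the 13 mitochondrial members with the cytosolic gene for the same amino acid gave 14 pairs, since FRS1 and FRS2 both pair with MSF1. The median pair ratio in footprints was 25.8 in DBP1 cells at 37C, 14.8 in DBP1 cells at 30C, 26.0 in DED1 cells at 37C and 20.1 in DED1 cells at 30C. No test was made on these ratios.

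Whether the response to 37C differed between strains was tested as an interaction, the log2 difference at 37C in DBP1 cells minus that in DED1 cells. It draws on the same samples as the comparisons above. In footprints 2 cytosolic members had a higher value in DBP1 cells and 2 mitochondrial members a lower one, against 1.91% of tested genes higher and 10.0% lower. The 2 lower among 13 mitochondrial members were near the latter share. Median-of-ratios scaling turned these counts into 5 cytosolic members higher and no member lower, against 3.75% of tested genes higher and 5.98% lower. The median was 0.15 for the cytosolic set, -0.35 for the mitochondrial set and -0.14 over all tested genes, and with that scaling 0.29, -0.21 and -0.01. Ribosomal protein genes had the same directions as first scaled. Of 135 tested cytosolic ones 43 were called higher (median 0.29), and of 72 mitochondrial ones 5 were called lower (median -0.29). In mRNA limma called no member, against 5.23% of tested genes in either direction, and 2 cytosolic and 4 mitochondrial members had an unadjusted p below 0.05, as did 23.7% of tested genes. The mRNA medians were 0.18 for the cytosolic set, -0.29 for the mitochondrial set and -0.10 over all tested genes. Under median-of-ratios scaling they were 0.28 and -0.18, with 0.01 over all genes.

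The lower mitochondrial members were MSY1 and MSE1. For MSY1 the footprint difference at 37C was -1.15 ± 0.13 in DBP1 cells and -0.38 ± 0.13 in DED1 cells (SE), and the interaction was -0.77 ± 0.19 (SE), adjusted p = 0.0324. For MSE1 it was -1.03 ± 0.13 in DBP1 cells and -0.37 ± 0.13 in DED1 cells (SE), and the interaction was -0.66 ± 0.18 (SE), adjusted p = 0.0421. Both fell in each strain and by more in DBP1 cells, but neither call held with median-of-ratios scaling (adjusted p = 0.0799 for MSY1 and 0.0861 for MSE1). For GLN4 the footprint difference at 37C was 0.36 ± 0.08 in DBP1 cells and -0.10 ± 0.08 in DED1 cells (SE), and the interaction was 0.46 ± 0.11 (SE), adjusted p = 0.0339. FRS2 had 337 and 334 footprint RPKM in DBP1 cells at 37C and 291, 287 and 298 RPKM at 30C, and 307 and 305 RPKM in DED1 cells at 37C and 330.3, 331 and 364 RPKM at 30C. Its 37C libraries were above the 30C ones in DBP1 cells and below them in DED1 cells, and the interaction was 0.36 ± 0.10 (SE), adjusted p = 0.0485. No called interaction held with each replicate left out in turn. All 4 ended without DBP1 replicate 1 or 2 at 30C, DBP1 replicate 1 at 37C, DED1 replicate 2 at 30C or DED1 replicate 2 at 37C (adjusted p from 0.0556 to 0.12). FRS2, GLN4 and MSE1 ended also without DBP1 replicate 2 at 37C, DED1 replicate 3 at 30C or DED1 replicate 1 at 37C (0.0599 to 0.12), and FRS2 and MSE1 without DBP1 replicate 3 at 30C (0.0604 and 0.0774). MSE1 also ended when no filter on low values was set (adjusted p = 0.054).

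**Figure D4:**
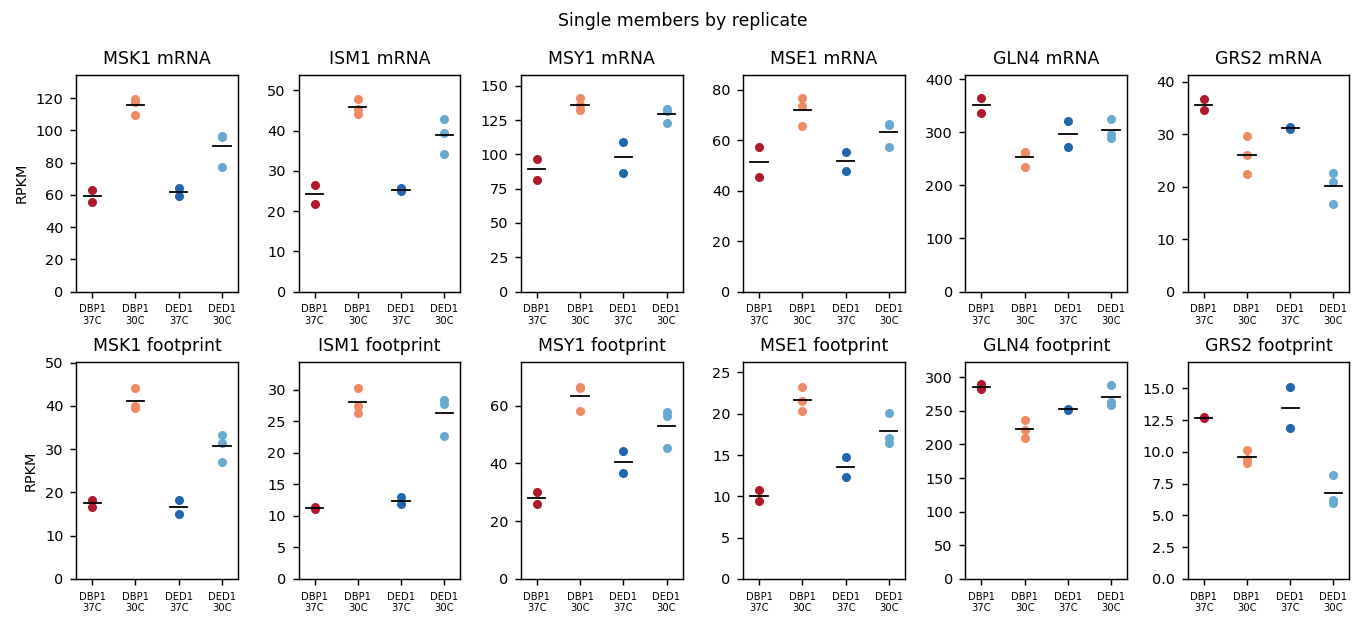
mRNA (upper row) and footprint (lower row) RPKM of MSK1, ISM1, MSY1, MSE1, GLN4 and GRS2 in every replicate, on axes that start at 0. Points are replicates and bars are group means; the 37C points of ISM1 and MSK1 lie below all 30C points in both strains, and GLN4 in DBP1 cells shows the opposite order.

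Translation efficiency, the footprint RPKM divided by the mRNA RPKM of the same replicate, also differed between the sets in its median. The cytosolic median was 1.14 to 1.33 over the 10 replicates, the mitochondrial median 0.421 to 0.572 and the median over all tested genes 0.619 to 0.693. DPS1, the aspartyl-tRNA synthetase gene, had the highest mean efficiency of the cytosolic set at 2.57, followed by GUS1 at 2.28. WRS1, the tryptophanyl-tRNA synthetase gene, and GRS2 had the lowest, at 0.721 and 0.371. In the mitochondrial set DIA4 was highest at 0.820 and NAM2 next at 0.691, with MSE1 lowest at 0.268. The sets therefore overlapped in efficiency. DIA4 lay above GRS1 (0.739), WRS1 and GRS2, and every mitochondrial member but MSK1, MSR1 and MSE1 lay above GRS2.

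**Figure D5:**
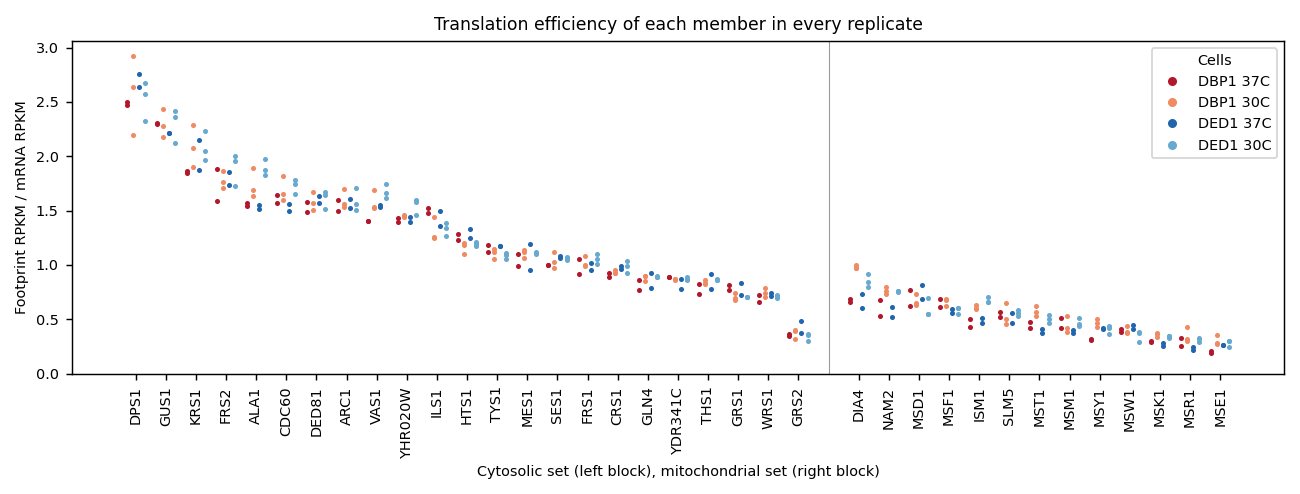
Translation efficiency of each member in every replicate, as footprint RPKM over mRNA RPKM on a linear axis, with members ordered by their mean within each set. Points are replicates coloured by strain and temperature; DPS1 averages 2.57 at the upper end and MSE1 0.268 at the lower end.

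In a single fit over all 20 libraries limma called no member for a difference in translation efficiency in any comparison. The share of tested genes called was 0.0402% between strains at 30C, 0.0201% at 37C, 1.02% for temperature in DBP1 cells, 0.985% for temperature in DED1 cells and 0.0% for the interaction. At an unadjusted p below 0.05 there were 3 mitochondrial members for temperature in DBP1 cells, 2 mitochondrial and 1 cytosolic for temperature in DED1 cells, 1 mitochondrial for the interaction and none between strains at either temperature. The shares of tested genes at that level were 12.0% and 11.9% for temperature in DBP1 and in DED1 cells, 2.27% for the interaction, and 3.07% at 30C and 2.19% at 37C between strains. At 37C against 30C the mitochondrial median was -0.24 in DBP1 cells and -0.25 in DED1 cells, while the cytosolic median was -0.05 in DBP1 cells and -0.03 in DED1 cells. Over all tested genes it was -0.06 in DBP1 cells and -0.00 in DED1 cells. With median-of-ratios scaling the mitochondrial median was -0.15 in DBP1 cells and -0.20 in DED1 cells, and the cytosolic median turned to 0.04 in DBP1 cells and 0.02 in DED1 cells.

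When the mRNA and footprint libraries of a replicate were paired in the fit, 3 mitochondrial members were lower at 37C in DBP1 cells and 1 cytosolic member in DED1 cells. In that fit 4.64% of tested genes were lower in DBP1 cells and 3.88% in DED1 cells. The 1 call among 23 cytosolic members is close to the DED1 share. MSY1 had an efficiency of 0.320 and 0.311 in DBP1 cells at 37C, against 0.499, 0.471 and 0.428 at 30C (log2 difference -0.54, adjusted p = 0.0119 in the paired fit and 0.186 in the unpaired one). DIA4 had 0.659 and 0.691 in DBP1 cells at 37C, against 0.975, 1.00 and 0.971 at 30C (log2 difference -0.52, adjusted p = 0.0362 paired and 0.156 unpaired). MSE1 had 0.207 and 0.188 in DBP1 cells at 37C, against 0.354, 0.280 and 0.276 at 30C (log2 difference -0.55, adjusted p = 0.0398 paired and 0.157 unpaired). Every efficiency at 37C was lower than every one at 30C for these genes. ALA1 had 1.55 and 1.52 in DED1 cells at 37C, against 1.87, 1.83 and 1.98 at 30C (log2 difference -0.30, adjusted p = 0.0444 paired and 0.377 unpaired). Its groups did not overlap either.

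Genes that work beside the mitochondrial synthetases moved in more than one direction. In footprints 17.6% of all tested genes were lower at 37C and 21.2% higher in DBP1 cells, and 13.6% were lower and 38.9% higher in DED1 cells, and the counts of each list stand beside these shares. Of 10 mitochondrial translation factors 9 fell and none rose in footprints at 37C in DBP1 cells, and 6 fell and 1 rose in DED1 cells. The median log2 difference of these factors was -0.81 in DBP1 cells and -0.53 in DED1 cells. TUF1, the mitochondrial elongation factor Tu that carries charged tRNA to the ribosome, differed by -0.88 ± 0.09 in DBP1 cells (SE, adjusted p = 0.000103) and by -0.63 ± 0.09 in DED1 cells (SE, adjusted p = 0.000557). The elongation factor gene MEF2 differed by -0.92 ± 0.13 in DBP1 cells (SE, adjusted p = 0.000481) and by -0.75 ± 0.13 in DED1 cells (SE, adjusted p = 0.00108). MTG1, a GTPase of mitochondrial ribosome assembly, rose in DED1 cells (0.63 ± 0.13, SE, adjusted p = 0.00265). Of 72 nuclear genes for mitochondrial ribosomal proteins 68 fell in footprints in DBP1 cells and 51 in DED1 cells, and none rose in either strain. Their median was -0.77 in DBP1 cells and -0.45 in DED1 cells.

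Of 9 partners of mitochondrial tRNA charging, which modify tRNAs, formylate the initiator or amidate misacylated tRNA, 4 fell and 2 rose in footprints at 37C in DBP1 cells, and 1 fell and 2 rose in DED1 cells, where both shares lay below those over all tested genes. Their median was -0.19 in DBP1 cells and 0.17 in DED1 cells, and -0.26 and -0.04 with median-of-ratios scaling. MTO1, which modifies the wobble uridine, fell in both strains, with log2 differences of -0.75 ± 0.12 in DBP1 cells (SE, adjusted p = 0.00128) and -0.46 ± 0.12 in DED1 cells (SE, adjusted p = 0.0113). SLM3, the thiouridylase for the same base, rose by 0.48 ± 0.12 in each (SE, adjusted p = 0.0122 in DBP1 cells and 0.00915 in DED1 cells). The DED1 call on SLM3 ended with median-of-ratios scaling (adjusted p = 0.0884) and without replicate 1 at 37C (0.0627), and the DBP1 call without replicate 2 at 37C (0.122). The MTO1 call in DED1 cells ended without replicate 1 or 2 at 37C (adjusted p = 0.0535 and 0.0534). MSS1, the partner of Mto1, was higher in DBP1 cells at 30C (0.65 ± 0.14, SE, adjusted p = 0.0167) and had a footprint interaction of -1.15 ± 0.23 (SE, adjusted p = 0.0144). Its 30C call ended without DBP1 replicate 1 or 2 or DED1 replicate 3 at 30C (adjusted p = 0.0533, 0.0551 and 0.0622).

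On the cytosolic side, 20 genes of tRNA maturation and export had 6 higher and 2 lower in footprints at 37C in DBP1 cells, and 5 higher and 2 lower in DED1 cells. Against the 38.9% of tested genes that were higher in DED1 cells, 5 of 20 is a smaller share. Their median was 0.13 in DBP1 cells and 0.05 in DED1 cells, and 0.05 and -0.17 with median-of-ratios scaling. TRZ1 of this list fell in DED1 cells (-0.58 ± 0.15, SE, adjusted p = 0.00865). CEX1, a factor of tRNA export, rose by 0.68 ± 0.10 in DBP1 cells (SE, adjusted p = 0.000536) and 0.53 ± 0.10 in DED1 cells (SE, adjusted p = 0.00159). CCA1, which adds the CCA end that synthetases charge, rose by 0.49 ± 0.11 in DBP1 cells (SE, adjusted p = 0.00768) and 0.57 ± 0.11 in DED1 cells (SE, adjusted p = 0.00276), and its DBP1 call ended without replicate 2 at 37C (adjusted p = 0.0586). Of the 3 genes listed under the sensing of uncharged tRNA (GCN1, GCN2 and GCN20), GCN20 rose in footprints in both strains. It rose by 0.35 ± 0.09 in DBP1 cells (SE, adjusted p = 0.011) and 0.51 ± 0.09 in DED1 cells (SE, adjusted p = 0.00117). Without replicate 1 at 37C the GCN20 difference in DBP1 cells was 0.28 and the call ended. GCN1, its binding partner, fell in DED1 cells (-0.46 ± 0.17, SE, adjusted p = 0.045), but without DED1 replicate 2 at 37C the difference was -0.12 (adjusted p = 0.477), and the call ended too without any 30C replicate of either strain or without a filter on low values (adjusted p from 0.0543 to 0.093). Of 135 tested cytosolic ribosomal protein genes 4 rose and 65 fell in footprints at 37C in DBP1 cells, and 1 rose and 124 fell in DED1 cells. Their median was -0.18 in DBP1 cells and -0.49 in DED1 cells.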

How the data were processed

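The deposited table holds RPKM per open reading frame, computed by the authors for 10 mRNA libraries (50 nt fragments) and 10 footprint libraries (28 to 31 nt). Per the submitters' processing notes, CASAVA, bcl2fastq 2.17 and Bowtie2 were used; no source used here gives the build, the counting rule or its use of strand. Symbols came from RefSeq (5994 of 6679 names matched, and all 36 members). Low RPKM values stepped in whole reads over the coding length less 60 nt, which gave each depth; every member value was whole within 0.02 reads. No member overlaps another RefSeq gene.

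Differences were fitted with limma 3.58.1 (R 4.3.3) on log2(RPKM + 1), which understates changes of low genes, over the 4 groups of an assay. The test took genes averaging 5 RPKM or more in the assay, adjusted p by Benjamini-Hochberg over all of them, and used a threshold of 0.05. Translation efficiency was the footprint contrast less the mRNA contrast in a model over 20 libraries. Pairing of mRNA with footprints rests on the shared replicate label: deviations correlated in all 10 replicates (r 0.24 to 0.655). The fits were tested on simulated data. Members and lists were chosen with earlier results of these data known; every member may be named, and from each other list up to 4 genes per contrast by smallest adjusted p. Alternatives were pseudocounts, filters, median-of-ratios scaling, replicate blocks and leaving out each replicate.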

Additional observations from a re-analysis of the deposited data

Results flagged for a closer look

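A difference between strains in the response to 37C marked 4 members, each by limma's interaction test on footprints. For GLN4 the log2 difference at 37C in DBP1 cells exceeded that in DED1 cells by 0.456 (adjusted p = 0.0339), and for FRS2 it did so by 0.358 (adjusted p = 0.0485). For MSY1 the interaction was -0.766 (adjusted p = 0.0324), and for MSE1 it was -0.661 (adjusted p = 0.0421). Among all tested genes 1.91% were called higher and 10.0% lower. The 2 lower calls among 13 mitochondrial members were near the latter share. All 4 calls ended when any of 5 replicates was left out (adjusted p from 0.0556 to 0.12), and those on MSY1 and MSE1 ended with median-of-ratios scaling (adjusted p = 0.0799 and 0.0861).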

How the results depend on the processing

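Among 67 calls on single members none reversed under any alternative run. Leaving out single replicates ended more of these calls than any other alternative. No footprint call between strains at 30C or for the interaction held through every such run. Pseudocounts of 0.1 and 5 kept all 67, a mean of at least 20 RPKM kept all 57 that it left in the test, no filter ended 1, replicate blocks ended 3 and median-of-ratios scaling ended 7. The number of members called between strains at 30C was 1 with a pseudocount of 5 in mRNA (0 as reported) and 14 with median-of-ratios scaling in footprints (7 as reported). For 37C against 30C in DED1 cells that scaling gave 29 in mRNA (10 as reported) and 29 in footprints (15 as reported). Replicate numbers did not pair the groups throughout (r of same-numbered replicates -0.157 to 0.361 in mRNA and -0.161 to 0.479 in footprints). Their median r was -0.0235 in mRNA and 0.0739 in footprints. The highest r were those between strains at 37C, where replicates of unlike number had -0.361 and -0.479. The main fit did not use the replicate number. With the number as a replicate block, GRS2 mRNA in DBP1 cells at 37C had adjusted p = 0.0583, and in DED1 cells at 37C the footprints of MSM1 and MSY1 had adjusted p = 0.0609 and 0.0688. The replicate block that pairs mRNA with footprints called 3 members for translation efficiency at 37C in DBP1 cells and 1 in DED1 cells, and changed no other call on efficiency.

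Leaving out 1 replicate at a time moved the number of members called at 37C to between 14 and 17 (footprints, DBP1 cells), 10 and 17 (footprints, DED1 cells), 8 and 15 (mRNA, DBP1 cells) and 5 and 10 (mRNA, DED1 cells). It was 0 to 6 between strains at 30C and 0 to 6 for the interaction in footprints, and 0 to 1 between strains at 30C in mRNA. The cytosolic minus the mitochondrial median ranged from 0.601 to 0.883 (footprints) and 0.526 to 0.78 (mRNA) for 37C in DBP1 cells, 0.133 to 0.423 and -0.024 to 0.352 for 37C in DED1 cells, -0.558 to -0.358 and -0.356 to -0.275 between strains at 30C, -0.116 to 0.138 and -0.025 to 0.247 between strains at 37C, and 0.381 to 0.631 and 0.341 to 0.575 for the interaction. For translation efficiency it ranged from 0.122 to 0.244 at 37C in DBP1 cells, 0.191 to 0.255 in DED1 cells, -0.187 to -0.096 between strains at 30C, -0.122 to -0.046 at 37C and -0.086 to 0.042 for the interaction. The causes were not tested. Depth was thinnest for GRS2, with as few as 69 footprint reads in a library.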
